A study of Mus musculus with 12 samples.

Results

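Open chromatin regions that were found in the livers of chow-fed Control mice, and in neither Sham nor VSG mice, are described here by their position, their sequence and the RNA of the genes near them. Peaks of FAIRE-seq from the 3 groups were merged where they overlapped, and a region was counted as Control-only when it overlapped a Control peak by at least 1 bp and no peak of Sham or VSG mice. Of 59246 merged regions, 3149 (5.32%) met this rule. The regions were chosen from the peak lists themselves, so that their presence and signal in the lists are given as a description and were not tested.

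All mice were male C57BL/6J, and the livers of 2 mice per group gave 12 libraries, since each of the 6 livers was used for both FAIRE-seq and RNA-seq. Control mice had standard chow for 28 weeks and no surgery. Sham and VSG mice were given a diet with 60% of its kcal from fat from 8 weeks of age, for 14 weeks before and 14 weeks after surgery, with a liquid diet over 4 days after the operation. Vertical sleeve gastrectomy (VSG) removed about 80% of the stomach, and Sham mice had the operation without this step. Control mice therefore differed from both other groups in diet and in surgery together, and the contributions of the 2 cannot be told apart.

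Chromatin is open where nucleosomes are displaced, as at promoters and enhancers, and FAIRE-seq recovers the DNA that formaldehyde does not crosslink to nucleosomes. In the liver, open regions are bound by hepatocyte factors such as HNF4A, FOXA and C/EBP proteins, and by receptors that respond to hormones and nutrients, among them the glucocorticoid receptor, a hormone receptor that induces genes of fasting metabolism. CTCF is a zinc finger protein that binds insulators and the anchors of chromatin loops. The bodies of genes that are transcribed at a very high rate can also lose nucleosomes.

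Each peak list combined both mice of a group and gave no value per mouse, and how deeply each FAIRE library was sequenced is unknown. There were 42204 Control, 52881 Sham and 44539 VSG peaks. RNA was measured per mouse as FPKM, and the spacing of the lowest FPKM values placed the depth of the 6 libraries between 0.681 and 1.55 times that of Control mouse 1. Hepatocyte markers dominated every library, with a summed FPKM of 27526 to 44763 over 10 genes.

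The sequences below are those of 3 of the strongest Control-only regions, shown because they lie near the genes Tat, Sik1 and Fkbp5, which are described further on. Positions are in mm9 (NCBIM37), on the plus strand and counted from 1. Capitals mark the hexamer AGAACA of the glucocorticoid receptor on either strand and the core of its palindrome, ACANNNTGT. Both patterns were added after the data were seen, and a match describes the letters and not a bound site. Tat encodes tyrosine aminotransferase, a textbook glucocorticoid-induced enzyme of amino acid breakdown, and its region lay 2485 bp upstream of the start site at chr8:112511553-112511852. Sik1 encodes salt-inducible kinase 1, a regulator of gluconeogenic transcription, and the 300 bp at the centre of its region, 2139 bp upstream, lay at chr17:31995075-31995374. Fkbp5 encodes a co-chaperone of the glucocorticoid receptor, and its region lay in an intron at chr17:28583762-28584048.
Tat: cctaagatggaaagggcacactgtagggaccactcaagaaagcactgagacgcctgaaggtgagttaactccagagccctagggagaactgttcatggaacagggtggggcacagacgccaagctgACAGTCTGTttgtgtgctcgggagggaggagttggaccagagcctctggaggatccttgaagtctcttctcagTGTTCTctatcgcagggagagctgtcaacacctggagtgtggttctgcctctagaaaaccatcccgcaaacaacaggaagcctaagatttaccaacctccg
Sik1: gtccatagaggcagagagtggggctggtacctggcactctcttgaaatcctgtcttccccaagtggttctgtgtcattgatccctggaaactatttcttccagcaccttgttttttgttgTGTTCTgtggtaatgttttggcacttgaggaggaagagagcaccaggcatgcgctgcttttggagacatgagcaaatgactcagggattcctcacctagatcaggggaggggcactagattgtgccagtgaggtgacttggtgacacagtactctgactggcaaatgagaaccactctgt
Fkbp5: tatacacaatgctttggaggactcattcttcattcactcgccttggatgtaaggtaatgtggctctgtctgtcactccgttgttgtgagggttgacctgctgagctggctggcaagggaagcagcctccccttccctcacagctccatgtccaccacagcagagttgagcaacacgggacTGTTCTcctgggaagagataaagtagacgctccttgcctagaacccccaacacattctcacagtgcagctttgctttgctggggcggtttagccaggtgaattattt
The hexamer was not more frequent among the Control-only regions than elsewhere. In windows of 300 bp it was found in 18.2% of Control-only regions, against 20.2% of all regions, and the palindrome core was found in 6.86% against 8.12%.

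The next sequences show 60 bp around the core of the CTCF motif, CAGGGGGC, in 3 Control-only regions, because this pattern had the highest ratio to shared regions among those searched. Capitals mark the core and, where it was found just before it, the left part of the motif, CCANNAGGG, which overlaps the core and was also added after the data were seen. The region at Qprt, which encodes an enzyme of NAD synthesis, lay in an intron at chr7:134255171-134255230. The region at Rhbg, which encodes an ammonia transporter, lay in an exon at chr3:88049930-88049989. The region at C85492 lay over a transcription start site (TSS) at chr9:121892817-121892876.
Qprt: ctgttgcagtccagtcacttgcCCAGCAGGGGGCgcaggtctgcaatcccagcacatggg
Rhbg: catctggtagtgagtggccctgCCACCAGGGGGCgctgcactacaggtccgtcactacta
C85492: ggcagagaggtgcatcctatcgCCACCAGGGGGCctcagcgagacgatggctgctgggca
In these 3 regions the core and the left part followed each other on the same strand, and the rest of the motif was not examined.

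Control-only regions were weak and short. Their F-seq signal ranged from 0.137 to 0.389 with a median of 0.156, while the median of all Control peaks was 0.252. All but 22 of the 3149 regions, that is 99.3% of them, lay below the median of the Control list, and the strongest ranked 11134 in that list. The median length was 229 bp, with quartiles of 186 and 322 bp, against 352 bp for all merged regions and 487 bp for regions present in all 3 groups. Each Control-only region consisted of a single Control peak.

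The share of Control-only peaks was lower at higher signal. In the lowest decile of Control peaks by signal, 30.4% were Control-only and 40.7% were present in all 3 groups. In the next decile 22.5% were Control-only, in decile 5 2.44%, and 0 in the top 2 deciles, where 99.9% and 100% were present in all 3 groups. Weak signal was not particular to Control mice. Regions found in Sham mice only, numbering 10160, lay below the median of the Sham list in 94.9% of cases, and the 2262 regions found in VSG mice only lay below that of the VSG list in 99.6%. The lowest signal of a listed peak was 0.137 for Control, 0.193 for Sham and 0.156 for VSG mice, so that the lists did not end at the same value. The upper quartile of the signal of Control-only regions, 0.172, was below the lowest listed Sham signal.

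**Figure D1:**
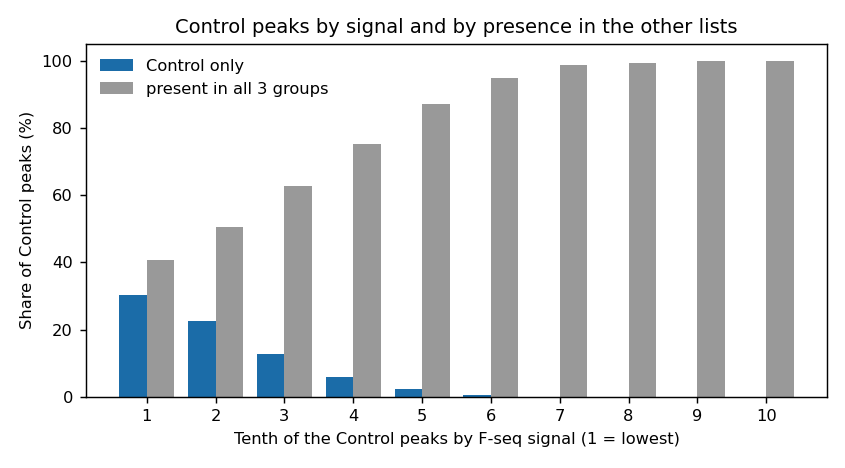
Share (%) of Control peaks that were Control-only (blue) or present in all 3 groups (grey), by decile of the F-seq signal in the Control list, from lowest (1) to highest (10). The blue bars go from 30.4% in the lowest decile to 0 in the top 2.

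Many Control-only regions were neighbours of peaks in the other groups. The nearest Sham or VSG peak was 2 bp away at the closest and 1250 bp away in the median. Within 50 bp lay 84 regions (2.67%), within 500 bp 1116 (35.4%), and within 1000 bp 1468 (46.6%). Just outside the rule, the smallest overlap of a Control peak with a peak of another group was 6 bp, and 4 regions overlapped by 50 bp or less. The median signal was 0.155 in the 84 regions just inside and 0.146 in the 4 just outside. When peaks separated by up to 1000 bp were merged, 1615 regions of the new set were Control-only, and when the same number of peaks was taken from each list there were 4823.

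Of the Control-only regions, 816 (25.9%, exact 95% binomial interval 24.4 to 27.5%) lay within 1000 bp of a TSS, which is called the promoter here. A further 295 (9.37%) lay in exons, 1127 (35.8%) in introns and 911 (28.9%) between genes. The promoter share was near that of all merged regions, 26.6%, and below the 36.3% of regions present in all 3 groups. It was above the 6.49% of Sham-only regions and near the 30.9% of VSG-only regions. Among regions present in all 3 groups whose Control signal was below the median of the list, 18.0% lay in promoters. These intervals cover counting error only, since the lists have no replicates.

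Promoter regions of the Control-only set lay beside the start site more often than over it. A TSS lay inside 155 Control-only regions (4.92%), against 28.6% of regions present in all 3 groups and 12.3% of VSG-only regions. It lay inside 1.35% of Sham-only regions, and 9.62% of shared regions with a Control signal below the median of the list. Among promoter regions alone, it lay inside 155 of 816 Control-only, 137 of 659 Sham-only and 279 of 698 VSG-only regions. A position beside the TSS was thus not particular to Control-only regions, and shared regions are also longer. The strongest promoter regions were at Cep110, which encodes a centriole protein (signal 0.276, 39 bp downstream), Rev3l, which encodes the catalytic subunit of DNA polymerase zeta (0.274, over the TSS), and Nr2f6, which encodes a nuclear receptor (0.251, 358 bp downstream). The region at Cry1, a repressor of the circadian clock, had a signal of 0.243 and lay 355 bp downstream of the TSS, with a Sham peak 247 bp and a VSG peak 145 bp away. The region at Rev3l is a CpG-rich promoter, and 300 bp of it, at chr10:39452010-39452309, are shown with its 44 CpG dinucleotides in capitals.
Rev3l: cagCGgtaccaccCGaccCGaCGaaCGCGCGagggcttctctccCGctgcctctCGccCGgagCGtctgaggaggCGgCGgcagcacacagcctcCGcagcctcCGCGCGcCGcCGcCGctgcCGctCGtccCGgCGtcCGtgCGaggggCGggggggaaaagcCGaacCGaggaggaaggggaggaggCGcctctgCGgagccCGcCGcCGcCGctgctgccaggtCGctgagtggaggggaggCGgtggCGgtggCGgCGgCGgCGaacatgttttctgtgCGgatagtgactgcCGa
For comparison, the median number of CpG dinucleotides in 300 bp was 16 for Control-only regions in promoters and 22 for promoter regions present in all 3 groups.

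The median GC content of Control-only regions was 53.7%, against 52.7% for all merged regions, 48.3% for Sham-only and 56.0% for VSG-only regions. Outside promoters it was 52.7%, and 52.3% in regions present in all 3 groups. Sequence with near-identical copies elsewhere in the genome was found in 114 Control-only regions (3.62%), in 1.15% of Sham-only and in 3.71% of VSG-only regions. Unique alignment, which the authors required, reaches such sequence only in part. Per chromosome, Control-only regions made up between 3.11% (X) and 14.7% (Y) of the merged regions. The value for Y rests on 5 of 34 regions, and the highest share on an autosome, 6.40%, was on chromosome 11 (305 regions).

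Of 26 sequence patterns of liver and general factors, searched on both strands in the central 300 bp of each region, 21 were found in a smaller share of Control-only regions than of regions present in all 3 groups. The core of the CTCF motif stood on the other side. It was found in 7.21% of Control-only regions (exact 95% interval 6.33 to 8.17%), in 4.10% of regions present in all 3 groups, in 1.84% of Sham-only, in 4.24% of VSG-only and in 3.83% of all merged regions. Outside promoters these shares were 8.62% in Control-only regions and 4.01% in shared regions. The difference lay in exons (11.2% against 5.98%), introns (8.70% against 3.05%) and between genes (7.68% against 4.44%), while in promoters the share was 3.19% against 4.26%. The left part of the motif, CCANNAGGG, was found in 13.0% of Control-only regions and 9.22% of all regions. These shares depend on the window, since shared regions are longer. Over whole regions the core was found in 7.40% of Control-only and 6.72% of shared regions. The left part was then found in 13.1% and 16.2%.

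Patterns of the hepatocyte factors HNF4A, FOXA, HNF1 and C/EBP, and the E-box and AP-1 patterns, were less frequent in Control-only than in shared regions. The HNF4A-specific pattern CAAAGTCCA was found in 0.667% of Control-only and in 1.63% of shared regions. The FOXA pattern TGTTTAC was found in 2.95% against 4.75%, and the HNF1 pattern GTTAATNAT in 0.413% against 0.969%. The C/EBP pattern TTGCNNAA was found in 10.99% against 13.1%, the E-box CACGTG in 4.80% against 8.46%, and the AP-1 pattern TGANTCA in 7.08% against 8.77%. In Sham-only regions the same patterns were found in 2.21% (HNF4A), 7.59% (FOXA), 1.20% (HNF1), 19.5% (C/EBP), 7.02% (E-box) and 15.8% (AP-1). Low shares were not particular to Control-only regions, since VSG-only regions held 1.02% (HNF4A), 4.02% (FOXA), 0.752% (HNF1), 10.2% (C/EBP), 7.16% (E-box) and 7.78% (AP-1). With promoters set aside, 23 of the 26 patterns were less frequent in Control-only than in shared regions, and 22 were so when only shared regions below the median of the Control list were used. The STAT5/BCL6 pattern TTCNNNGAA (8.74% against 8.61% outside promoters) and the HNF6 pattern ATTGATT (3.51% against 3.30%) lay within their intervals of each other. With promoters included, the HNF6 pattern was more frequent in Control-only than in shared regions (3.14% against 2.49%). Over whole regions it was less frequent (2.32% against 4.19%).

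**Figure D2:**
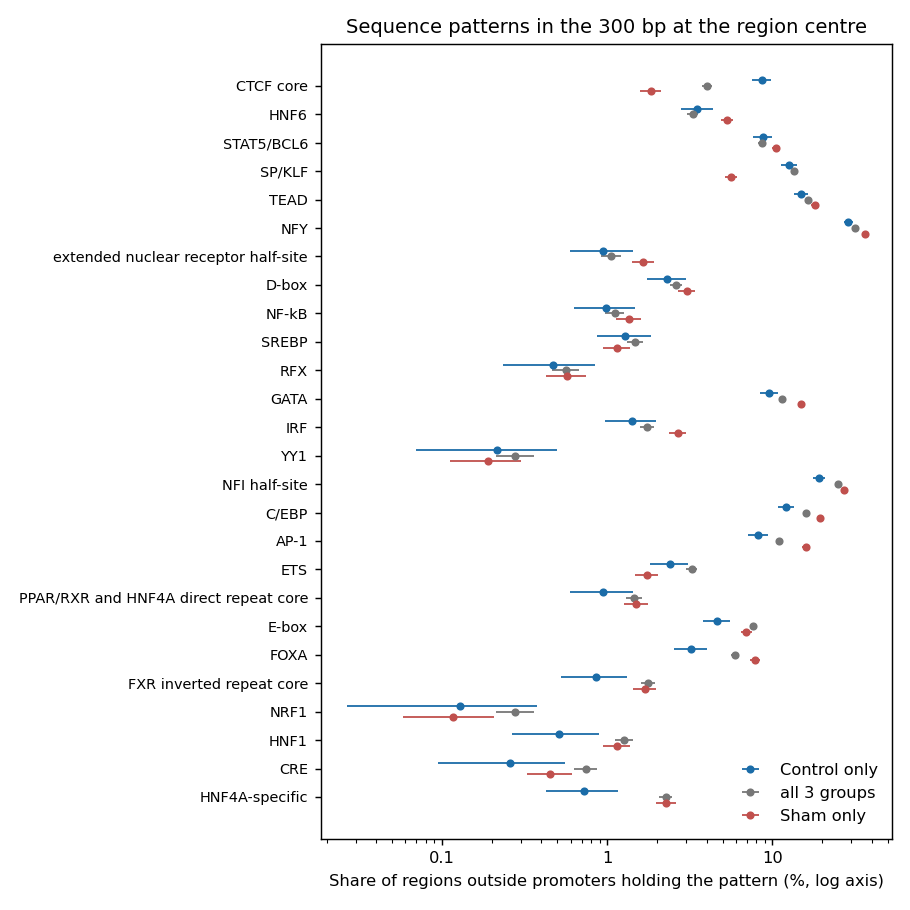
Share (%) of regions outside promoters that held each of 26 sequence patterns in their central 300 bp, on a log axis, for Control-only regions (blue), regions present in all 3 groups (grey) and Sham-only regions (red), with exact 95% binomial intervals. The CTCF core is at the top, with 8.62% of Control-only and 4.01% of shared regions, and the HNF4A-specific pattern at the bottom, with 0.729% and 2.26%.

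Control-only regions were spread over many genes, and a few genes held runs of them. Of the 3149 regions, 3000 had their nearest TSS within 100 kb, at 2355 genes. A single region was found at 1948 of these genes, 2 regions at 290 and 3 or more at 117, of which 22 had 5 or more. Runs of 8 or more described here were at C130026I21Rik (14 regions), Tat and Scp2 (9 each) and Ass1 (8). All 14 regions at C130026I21Rik, and all 6 at Gm10060, had copies elsewhere in the genome, and these genes were left aside.

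Tat (chromosome 8, 112514337 to 112523703, plus strand) had 4 Control-only regions in its body, each over an exon, 3 upstream and 2 downstream. Peaks covered 21.7% of the gene in Control, 4.20% in Sham and 12.3% in VSG livers. The region 2485 bp upstream had the highest signal of all Control-only regions, 0.389, and the region 10357 bp downstream the fourth highest, 0.290. The nearest peaks of Sham and VSG mice were 871 and 877 bp from the former and 315 and 317 bp from the latter. Of the regions examined farther upstream, the 5 with a Control peak were present in all 3 groups, and 1 region was found in Sham mice only.

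Ass1 encodes argininosuccinate synthase of the urea cycle. Its body (chromosome 2, 31325727 to 31376192, plus strand) held 8 Control-only regions, 7 in introns and 1 over an exon, with signals of 0.138 to 0.163 and a summed length of 5954 bp. Peaks covered 20.2% of the gene in Control, 3.40% in Sham and 3.75% in VSG livers. All 8 signals were below the lowest listed Sham signal, 0.193, and the lowest listed VSG signal was 0.156. A difference in openness and the end of the Sham list cannot be told apart here. Of these 8 regions, 6 lay between 28321 and 47895 bp from the TSS, and for the strongest of them the nearest Sham and VSG peaks were 17183 and 17249 bp away.

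Runs elsewhere were of another kind. At Scp2, which encodes a sterol carrier protein of peroxisomes, the 10 Control-only regions in the gene (chromosome 4, 107716444 to 107817603, minus strand) lay among 17 regions present in all 3 groups, and coverage was 9.52% in Control, 8.76% in Sham and 6.96% in VSG livers. The 7 regions at Klf13 and the 5 at Mtss1 also lay in introns or promoters of genes with many shared peaks. Klf13 was covered to 24.3% in Control, 20.2% in Sham and 16.3% in VSG livers, and Mtss1 to 14.1%, 15.3% and 10.9%. At Cux2, which encodes a female-biased transcription factor of the liver, 6 Control-only regions lay in introns or upstream, with the nearest VSG peak 24926 bp or farther away. At Ahcy, which encodes the hydrolase of S-adenosylhomocysteine, the 5 regions lay outside the gene and within 338 bp of a Sham peak.

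**Figure D3:**
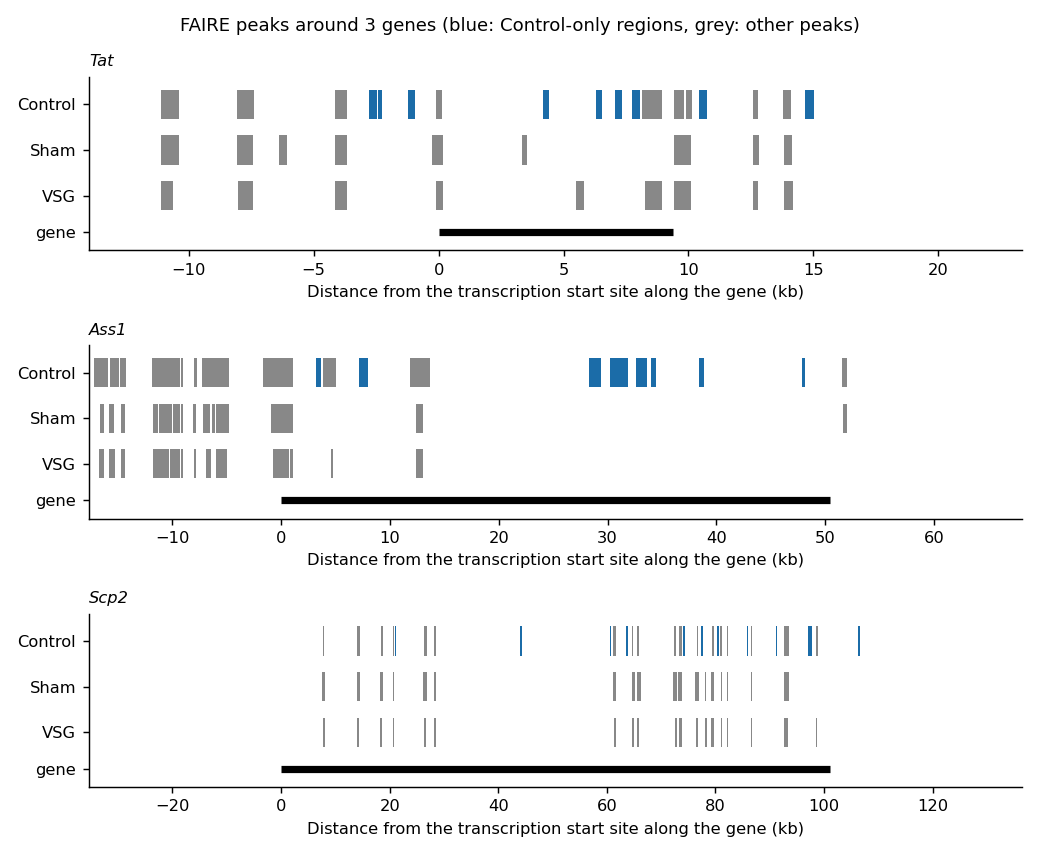
FAIRE peaks of Control, Sham and VSG mice around Tat, Ass1 and Scp2, as distance (kb) from the TSS along the gene, with Control-only regions in blue, other peaks in grey and the gene body as a black bar. Ass1 holds a row of blue peaks with no listed Sham or VSG peak at the same place. Their signals were below the lowest listed Sham signal, 0.193. At Scp2 the 10 blue peaks lie among 17 regions present in all 3 groups.

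Besides those at Tat and Sik1 (0.303), strong Control-only regions were near Kank2, a regulator of the cytoskeleton (0.289, intron), Lgals4, which encodes a galectin (0.289, intergenic), Phc3, a Polycomb subunit (0.281, intergenic), and Fkbp5 (0.278, intron). The regions near Kank2, Lgals4 and Phc3 were isolated, with the nearest Sham and VSG peaks 4755 bp or farther away. The region in Fkbp5 was 42 bp from a VSG peak and 712 bp from a Sham peak.

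Whether genes near Control-only regions also differed in RNA was asked with RNA-seq, which the rule did not use. Of the 2355 nearest genes, 2210 had a transcript in the FPKM table and 1473 passed the filter of at least 1 FPKM in at least 2 mice. Of these 1473, 9 passed through the Control mice alone and 83 through the high-fat mice alone. Each gene stands by its transcript with the highest mean FPKM, and differences are on the scale of log2(FPKM + 1), which understates the change of low genes. Differences were tested with limma, in which the adjusted p covers all 11511 transcripts tested, at an FDR of 10%.

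In Control mice against the mean of Sham and VSG, 4 of the 1473 genes were higher and 3 were lower. Over all 9210 genes tested, 0.141% were higher and 0.174% lower, which is 13 and 16 genes, so that these counts stand on few calls. Most of the called genes passed the filter only through the group in which they were high. These were Cyp2b10, Setd1a and D130020L05Rik through the Control mice, and Lifr and Bid through the high-fat mice. Their calls are therefore not independent of the filter. The 7 calls became 0 without Control mouse 1, Control mouse 2, VSG mouse 1 or VSG mouse 2, and 20 without Sham mouse 2. Against Sham mice alone, 3 genes were higher in Control and 1 was lower (0.13% and 0.0651% of all genes), and against VSG mice alone 2 were higher and 0 lower with limma (0.0869% and 0.0326%). These 4 and 2 calls became 0 without either Control mouse or without VSG mouse 2, while without Sham mouse 2 they became 31 and 8, and without Sham mouse 1 both became 8. Both comparisons share the Control mice.

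At an unadjusted p below 0.05, 90 of the 1473 genes (6.11%) were higher in Control mice and 78 (5.30%) lower, against 3.21% and 7% of all genes. The Control mice lay above all 4 high-fat mice for 182 genes (12.4%) and below them for 172 (11.7%), against 9.08% and 16.2% of all genes. The log2 difference was above 0 for 794 (53.9%), against 45.2%. Against Sham mice alone, 103 of the 1473 (6.99%) were higher and 72 (4.89%) lower at the same unadjusted p, against 4.13% and 5.73% of all genes. Against VSG mice alone, 69 (4.68%) were higher and 64 (4.34%) lower, against 2.28% and 5.88%. The median log2 difference was 0.04 over the 1473 genes and -0.06 over all genes. These are counts and medians without a test of the list, and the filter let in more genes through the high-fat mice (83) than through the Control mice (9).

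The difference was larger for genes with several regions. The median was -0.08 for the 7737 genes with no Control-only region, 0.03 for the 1194 genes with 1 region, 0.11 for the 194 with 2 and 0.23 for the 85 with 3 or more. Of the 85 genes, 12 (14.1%) were higher and 1 was lower in Control mice at an unadjusted p below 0.05 with limma. The shares over all genes were 3.21% and 7%. Control mice lay above all high-fat mice in 19 (22.4%) and below them in 3 (3.53%), against 9.08% and 16.2% of all genes. The 85 genes were also more highly expressed, with a median of 12.3 FPKM against 5.57 over all genes. Their median log2 difference was 0.37 without Control mouse 1 and 0.17 without Control mouse 2. It was 0.20 without Sham mouse 1, 0.31 without Sham mouse 2, 0.17 without VSG mouse 1 and 0.35 without VSG mouse 2. In these fits the median of all genes was -0.08 to -0.05. With no filter on low FPKM the median was 0.05, where the median of all genes was -0.02. Against Sham mice alone the median of the 85 genes was 0.30 (-0.03 for all genes), and against VSG mice alone it was 0.04 (-0.13 for all genes).

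**Figure D4:**
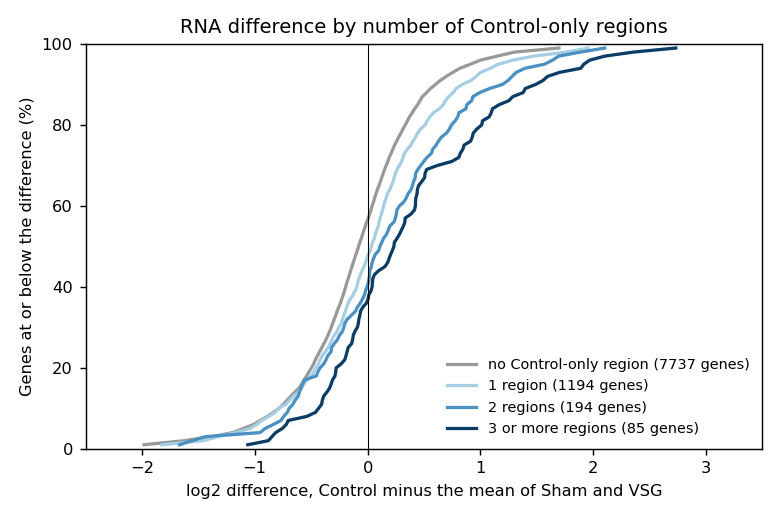
Cumulative share (%) of genes at or below each log2 difference in RNA, Control minus the mean of Sham and VSG mice, for genes with no Control-only region nearest to them (grey) and with 1, 2 or 3 or more (light to dark blue). The curves lie farther to the right with more regions, with medians from -0.08 to 0.23.

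Tat was the 1 gene with 3 or more regions that passed the test. Its FPKM was 1376 and 1477 in Control mice, 210 and 188 in Sham and 233 and 283 in VSG mice. The Control mice lay far above the others, and Sham and VSG mice lay close to each other. The mean was 6.25 times that of the high-fat mice, and the log2 difference was 2.65 ± 0.20 (SE, limma, adjusted p = 0.0354). Tat was also higher in Control mice against Sham (log2 difference 2.84, limma, adjusted p = 0.0419) and against VSG alone (2.47, limma, adjusted p = 0.0791).

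Other genes with runs had the same order of values without passing the adjusted threshold. Ass1 had an FPKM of 1309 and 1302 in Control, 300 and 256 in Sham and 334 and 545 in VSG livers, with no overlap and a log2 difference of 1.92 ± 0.28 (SE, limma, adjusted p = 0.157). Ahcy had 1140 and 1038, 547 and 451, and 442 and 606 in the same order (1.10 ± 0.25, SE, limma, adjusted p = 0.277). In both genes the lower Control mouse was above the highest high-fat mouse.

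Scp2 showed the opposite order. Its FPKM was 830 and 790 in Control, 1599.5 and 1016 in Sham and 1818.5 and 1078.5 in VSG livers, so that both Control mice lay below all others (log2 difference -0.72 ± 0.35, SE, limma, adjusted p = 0.543). Among 32 tested genes with 4 or more regions, none of them in repeated sequence, Control mice lay above all high-fat mice in 12 and below them in 1, which was Scp2, where the shares over all genes were 9.08% and 16.2%.

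**Figure D5:**
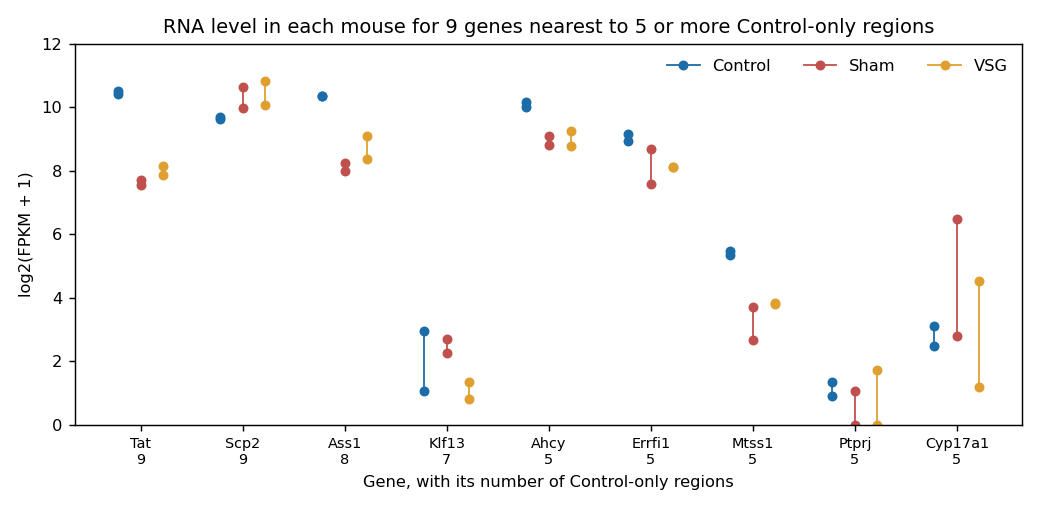
RNA level of each mouse, as log2(FPKM + 1), for 9 tested genes nearest to 5 or more single-copy Control-only regions, with the number of regions under each name. Points are mice, joined within a group. In 5 of the 9 genes both Control mice lie above all Sham and VSG mice, and at Scp2 both lie below.

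Further genes with 3 or more regions lay apart in the same direction. Gadd45g, a stress-induced gene of the growth arrest family, had 4 regions and an FPKM of 159 and 152 in Control against 7.89 to 42.5 in high-fat mice (3.14 ± 0.48, SE, limma, adjusted p = 0.173). Elovl6, a fatty acid elongase of lipogenesis, had 3 regions and 15.4 and 15.1 against 1.39 to 4.05. Mtss1, which encodes an actin-binding protein, had 39.3 and 43.4 against 5.30 to 13.3. Mcart1, a mitochondrial carrier, had 4 regions between 1346 and 5819 bp upstream of the TSS and an FPKM of 24.99 and 41.3 against 7.48 to 12.5. Nnmt, which methylates nicotinamide, had 234 and 349 against 84.1 to 177, and Txnip, an inhibitor of thioredoxin, 54.1 and 58.9 against 13.3 to 42.3. In the other direction, 1 gene nearest to 3 or more regions was lower in Control mice at an unadjusted p below 0.05 with limma. This was Foxa2, a pioneer factor of the liver, with 1.98 and 3.05 against 3.27 to 6.45. Scp2 and Gcgr, the glucagon receptor with 3 regions and 142 and 127 against 152 to 181 FPKM, also had both Control mice below all others. None of the genes in this paragraph passed the adjusted threshold, with limma adjusted p from 0.173 to 0.659.

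Of the other genes that passed the test, most were lowly expressed and had 1 or 2 regions. Cyp2b10, a cytochrome P450 induced through the receptor CAR, had a region of 0.208 signal over its TSS. Its FPKM was 8.46 and 8.81 in Control mice, at most 0.0389 in Sham and at most 0.135 in VSG mice, where VSG mouse 2 was listed at 0 (3.20 ± 0.24, SE, limma, adjusted p = 0.0311). Setd1a, a histone methyltransferase, had 2 regions, 1 of them over its TSS, and 4.65 and 6.504 FPKM in Control mice, and was listed at 0 in all 4 high-fat mice (limma, adjusted p = 0.0695). D130020L05Rik had 4.23 and 3.65 and was likewise listed at 0 in the others (limma, adjusted p = 0.0727), but overlaps Smek1 on the opposite strand, and without strand the reads of the 2 cannot be told apart. This call is of a single transcript. With FPKM summed per gene it did not pass (log2 difference 1.78 against 2.30, limma, adjusted p = 0.380). Tacc2 was lower in Control than in Sham mice (6.93 and 10.3 FPKM in Sham, limma, adjusted p = 0.0632), and its transcript was listed at 0 in Control and VSG mice. These values are of a single transcript and not of the whole gene. Against the mean of Sham and VSG, the log2 difference was -1.62 for this transcript and -0.71 with FPKM summed per gene. The 2 regions at Tacc2 lay in introns of the neighbouring gene Fgfr2, and 1 of them had a copy elsewhere.

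Genes lower in Control mice had a single region each. Lifr, the receptor of leukemia inhibitory factor, and Bid, a gene of apoptosis, were listed at 0 in both Control mice, with 3.77 to 7.45 and 3.40 to 5.11 FPKM in high-fat mice (limma, adjusted p = 0.0711 and 0.0892). A listed 0 of a transcript can be a failed estimate in these values. Ifi27l2b, an interferon-inducible gene, had 2.66 and 2.34 in Control against 34.5 to 79.3 (-3.90 ± 0.41, SE, limma, adjusted p = 0.0727), with its region 35686 bp away. The next genes were Gas6, a ligand of TAM receptors, with 10.8 and 8.22 against 31.4 to 60.6 FPKM, and Tmem176a, a membrane protein, with 105.3 and 97.6 against 229 to 441, neither of which passed (limma, adjusted p = 0.136 and 0.178).

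Apart from Tat, none of the 5 tested genes nearest to one of the 10 strongest regions passed the test in RNA, and Lgals4, Phc3 and Gm15319 did not pass the filter. Sik1, with 3 regions, had an FPKM of 12.3 and 23.0 in Control, 4.46 and 7.82 in Sham and 1.79 and 8.87 in VSG livers (1.56 ± 0.62, SE, limma, adjusted p = 0.491). Fkbp5 had 23.5 and 7.67 in Control, 1.01 and 6.34 in Sham and 2.30 and 7.06 in VSG livers (1.71 ± 0.78, SE, limma, adjusted p = 0.521). In both genes the Control mice lay above the others, and in Fkbp5 the 2 Control mice differed by more than the lower of them differed from VSG mouse 2. Cep110 had 2.59 and 3.64 against 0.402 to 1.49, and Kank2 2.62 and 5.03 against 4.94 to 6.83, with an overlap.

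The regions were further set beside 24 lists of genes. Over all genes, 5.43% of the merged regions within 100 kb of a TSS were Control-only, and 14 of the 24 lists lay above this share. The RNA counts of each list at an unadjusted p below 0.05 stand against 3.21% of all genes higher and 7% lower in Control mice. Among genes of fatty acid oxidation, 4 Control-only regions were at Ppara, the nuclear receptor that drives this pathway, and 2 at Cpt1a, which imports fatty acids into mitochondria. In RNA, 24 genes of the list were tested, none was higher at an FDR of 10% and Cd36, which has no Control-only region, was lower, while 5 were higher and 3 lower at an unadjusted p below 0.05. Of 151 regions at hepatocyte markers, 25 (16.6%) were Control-only, 9 at Tat and 8 at Ass1.

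Genes of gluconeogenesis and glucose handling had 10 Control-only regions at 9 of 17 genes, 5.41% of their regions and near the share of all genes. In RNA, 3 of the 17 were higher and 1 was lower at an unadjusted p below 0.05, and 0 at an FDR of 10% with limma. Pck1, which encodes phosphoenolpyruvate carboxykinase, had a region over an exon and a region 6846 bp upstream, and an FPKM of 1490 and 1485 in Control, 454 and 688 in Sham and 452 and 1052 in VSG livers. G6pc, the catalytic subunit of glucose-6-phosphatase, had 144 and 272, 24.3 and 27.0, and 87.8 and 150, so that VSG mouse 2 overlapped the Control mice. In the list of the growth hormone axis, which had 9 of 120 regions (7.50%), Igfbp1, an insulin-repressed binding protein of growth factors, had 466 and 567 against 24.2 to 339, with its region 62094 bp away.

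Lipogenic genes had 9 Control-only regions of 171 (5.26%), 3 each at Elovl6 and Dgat2. Of 16 tested, 1 was higher in Control mice at an FDR of 10%, Scd2, which has no Control-only region, and 5 were higher and 0 lower at an unadjusted p below 0.05. Scd1, the stearoyl-CoA desaturase, had a region 3891 bp from its TSS and an FPKM of 1123 and 308 in Control against 4.32 to 74.1 in high-fat mice. Cholesterol synthesis had 8 of 91 regions (8.79%). Bile acid synthesis and transport had 5 of 96 (5.21%), among them 1 at Cyp8b1 and 1 at Cyp27a1, both hydroxylases of bile acid synthesis. Neither list had a call at an FDR of 10% with limma, and at an unadjusted p below 0.05 the former had 1 of 17 genes higher and 1 lower in Control mice, the latter 3 and 2 of 16.

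Liver transcription factors had 24 of 315 regions (7.62%) at 12 of 24 genes, among them 4 each at Ppara and Prox1, a regulator of liver development, and 3 at Hnf4a, 1 of them over a TSS. None of the 21 tested passed an FDR of 10% with limma, and Foxa2 had an unadjusted p below 0.05. Hnf4a had 31.0 and 55.6 FPKM in Control mice and 73.3 in Sham mouse 2, and was listed at 0 in Sham mouse 1. Female-biased genes had 7 of 29 regions (24.1%), 6 of them at Cux2, which did not pass the filter on FPKM. Among the lists that are not cell type markers, the lowest shares were those of xenobiotic conjugation and Nrf2 targets (1 of 76, 1.32%) and of immediate early genes (5 of 136, 3.68%).

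Acute phase genes had 12 Control-only regions of 157 (7.64%), with 2 each at Itih4, Itih3 and Saa1, and in RNA 2 of 18 tested were higher and 6 lower in Control mice at an unadjusted p below 0.05 (3.21% and 7% of all genes). C3, the central complement component, was the nearest gene of a region 6707 bp from its TSS, and its gene body held 3 Control-only regions. Its FPKM was 843 and 1163 in Control against 1663 to 3439 in high-fat mice. Kupffer cell markers had 1 Control-only region of 6, 44295 bp from Marco, a scavenger receptor of these macrophages.

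The summed RNA of markers of other cell types differed between the groups. Over 10 Kupffer cell markers the summed FPKM was 34.1 to 52.3 in Control, 125 to 135 in Sham and 104 to 335 in VSG livers, and 6 of the 10 were lower in Control mice at an unadjusted p below 0.05 (7% of all genes). Over 9 neutrophil markers it was 112 to 168, 1964 to 5324 and 230 to 2089, with Ly6g listed at 0 in all mice. Over 10 markers of sinusoidal endothelium it was 23.9 to 64.3, 8.83 to 11.4 and 37.8 to 43.9, and over 12 stellate cell markers 53.8 to 77.9, 12.3 to 27.2 and 66.1 to 85.4. Cholangiocyte markers had 31.6 to 35.1, 65.8 to 186 and 34.9 to 148, and lymphocyte markers at most 5.28 in any mouse. The sums of the neutrophil and cholangiocyte lists rest on few genes and do not stand for each list as a whole. The median gene had 0.408 FPKM in the former and 0.529 in the latter. Only 4 of the 9 neutrophil and 3 of the 7 cholangiocyte genes passed the filter on FPKM. In whole liver, fewer cells of a type and less RNA per cell cannot be told apart, and the part of cell composition in the regions and in the RNA differences was not tested.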

How the data were processed

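FAIRE-seq and RNA-seq libraries were made from liver. Per the study's methods, the authors aligned FAIRE reads to mm9 with bowtie, removed PCR duplicates and reads that were not unique or properly paired, ran F-seq on the rest and used IDR to retain peaks reproducible between the 2 mice. The F-seq signal of each peak and its summit were used as deposited. FPKM per RefSeq transcript was computed by the authors with TopHat2 and Cufflinks. The labels name poly(A) enrichment, the methods ribosomal depletion. The deposited DESeq2 tables (fold changes and p-values on HTSeq counts) and lists of variable sites hold the authors' own comparisons and were not used.

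Peaks that overlapped or adjoined were merged. Genes (protein coding and lincRNA) and sequence came from NCBIM37 with GENCODE vM1, and 30024 of 34933 transcripts matched a gene. A copy was a BLAST 2.17.0 match of at least 95% identity over at least 80% of the length. Patterns were searched in 300 bp around the region centre. FPKM was tested as log2(FPKM + 1) with limma 3.58.1 in R 4.3.3 (moderated variance with a trend, all 6 mice in a single fit, BH adjustment), for transcripts with at least 1 FPKM in at least 2 mice. Labels do not say more about the mice than their number, and p-values measure the spread between them. The fit and the region search were tested on simulated data. Other steps used Python 3.11.15 with pandas 2.3.3, numpy 2.4.6, scipy 1.17.1, pysam 0.24.0 and matplotlib 3.10.9.

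The members, gene lists, patterns and tests were chosen with earlier results of these data known. Named were the 10 regions with the highest signal, the 5 longest runs, up to 4 genes per list by signal, and nearest genes called by limma or, where fewer than 5 were called in a direction, the 5 with the smallest p. Genes with 3 or more regions, Cux2, Klf13, Ahcy, Mtss1 and the promoter regions were added after their values were seen. Some items that this rule names are not reported here.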

Additional observations from a re-analysis of the deposited data

How the results depend on the processing

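The number of Control-only regions was 1558 with the 50% of peaks of highest signal, 4823 when each list was cut to an equal count of its strongest peaks, 1948 and 1615 after merging over gaps of up to 500 and 1000 bp, against 3149. Their promoter share of 25.9% became 21.3%, 23.2%, 13.1% and 11.3% in the same order, 30.5% for peaks of at least 250 bp, and 19.4% and 35.3% with promoter windows of 500 and 2500 bp.

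The 53, 40 and 25 transcripts called in Control against the mean of Sham and VSG, against Sham and against VSG became 80, 109 and 86 with no filter on low FPKM, and 29, 20 and 15 with FPKM summed per gene. With a pseudocount of 0.1 the latter 2 became 65 and 49. Leaving out each mouse gave 0 to 121, 0 to 221 and 0 to 44 transcripts. The 7, 4 and 2 nearest genes called became 0 to 20, 0 to 31 and 0 to 8 when a mouse was left out. The 7 were 4 with a pseudocount of 0.1, for a TSS within 1000 bp, and, chosen after seeing the data, for the gene body that holds the region or a mean FPKM of at least 1. The 4 and 2 were 7 and 6 with no filter, and the 2 were 1 with quantile normalization.

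With the replicate number as a block, 13, 12 and 9 transcripts and 0 nearest genes were called in each comparison. The deviations of same-numbered mice had correlations of 0.115 (Control and Sham), 0.0862 (Control and VSG) and 0.115 (Sham and VSG). The labels give no pairing beyond the numbers, and whether same-numbered mice share an effect was not tested.

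The median log2 difference of the nearest genes, 0.044, was 0.071 with a pseudocount of 0.1, -0.0019 with no filter, 0.109 with quantile normalization, 0.087 for a TSS within 1000 bp and 0.0039 to 0.090 without each mouse. It stayed above the median of all genes in each of these fits, by 0.105 in the main fit but by only 0.016 with no filter. Of the 18 named genes, none changed sign as a called gene, but the calls themselves were not stable. With the replicate number as a block none of them passed, including Tat (limma, adjusted p = 0.154). The cause of these shifts was not tested. The peak lists gave no value per mouse and no depth, so their counts have no replicate error.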
